A study of Mus musculus with 9 samples.

Results

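Messenger RNA of 10 myeloid C-type lectin receptor genes was followed in mouse lung. The genes were taken by symbol from a table of 55851 genes, with the identifier of highest mean FPKM where a symbol had several. All 10 passed the low-level filter, among 17716 genes in all. The libraries came from total lung cells of female C57BL/6J mice and carried a time label of 7 weeks. There were 3 groups of 3 libraries: wild-type mice given phosphate-buffered saline (WT PBS, libraries 1, 2 and 3), wild-type mice given ovalbumin, an egg-white protein used as an allergen (WT OVA, libraries 5, 6 and 9), and DJ-1 knockout mice given ovalbumin (DJ-1 KO OVA, with library names DJ1_KO_OVA_263, DJ1_KO_OVA_266 and DJ1_KO_OVA_267). DJ-1 is the protein of Park7. Nothing used here names the knockout allele or says whether wild-type mice were littermates, no saline-treated knockout group was analysed, and the labels do not say whether a library is a single animal. Knockout and wild-type challenge responses can therefore not be separated from differences that the genotypes had before challenge.

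C-type lectin receptors are membrane proteins with a calcium-dependent or related sugar-binding fold, carried mainly by macrophages, monocytes, neutrophils and dendritic cells. Activating members signal through tyrosine motifs of their own tail or of the adaptor Fc receptor gamma chain, which recruit the kinase Syk and, through Card9, Bcl10 and Malt1, reach NF-kB. Inhibitory members carry a motif that recruits phosphatases. In the lung they take part in the recognition of fungi, mycobacteria, house dust mite glycans and dead cells. Among the 10 genes, Clec7a (dectin-1, a beta-glucan receptor), Clec4n (dectin-2, which binds mannans), Clec4d (MCL, a partner of Mincle) and Clec4e (Mincle, which binds mycobacterial cord factor and the nuclear protein SAP130) belong to the activating kind. Clec12a is an inhibitory receptor of uric acid crystals, and Clec4a2, Clec4a1 and Clec4a3 belong to the dendritic cell immunoreceptor group, of which Clec4a2 carries the inhibitory motif. Clec10a and Mgl2 (CD301a and CD301b) bind galactose and N-acetylgalactosamine.

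Depth and labels were checked first. The libraries held 20812192 to 29080130 reads recovered from the deposited values, and between 12636 and 12983 genes reached 1 FPKM (reads scaled by gene length and library size) in a library. The 10 receptor genes were covered by 175 reads (Clec10a, library DJ1_KO_OVA_263) to 32985 reads (Clec7a, library DJ1_KO_OVA_267). Park7 stood at 46.7 ± 8.91 FPKM in WT PBS, 57.2 ± 3.78 FPKM in WT OVA and 5.08 ± 1.92 FPKM in DJ-1 KO OVA (SD, n = 3 each), which goes with the genotype labels. Markers of lung epithelium were present in every library, with summed levels of 6175 to 41791 FPKM over 7 genes. Library DJ1_KO_OVA_263 stood apart, with the lowest value of 9 of the 10 receptor genes, and receptor results that rest on it are given below without it.

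The genes lie in 3 clusters, and upstream sequences of 4 genes called in either knockout comparison are shown here; Clec12a, also called, is left out because its listed start lies inside the gene. Clec4a1 (chromosome 6, 122921848 to 122934619, plus strand), Clec4a3 (122952515 to 122969875, plus), Clec4a2 (123106428 to 123143999, plus), Clec4n (123229843 to 123247021, plus), Clec4d (123262111 to 123275265, plus) and Clec4e (123281789 to 123289870, minus) make up the Dectin-2 cluster on GRCm38. Clec12a (chromosome 6, 129342691 to 129365303, plus) and Clec7a (129461591 to 129472779, minus; typed as a polymorphic pseudogene in the table) bound the Dectin-1 cluster. Mgl2 (chromosome 11, 70130329 to 70137550, plus) and Clec10a (70156197 to 70170834, plus) are neighbours. Upstream sequence was found in the RefSeq promoter table (GRCm38.p6) for 8 of the 10 genes, and a window of 200 bases, from 250 to 51 bases before the listed start, was read for each. For 2 of the 8 that window lies inside the gene as the deposited table gives it: all 200 bases of the Clec12a window and 18 of the Clec4a2 window are exonic in GENCODE M21, so motifs were counted over the other 6. Capitals mark matches on either strand to GAGGAA, the core of sites of the myeloid factor PU.1, to TTNNGNAA, a C/EBP half-site pair, and to the STAT6-type palindrome with a spacer of 4 bases.
Clec4d, chr6:123261857-123262056, plus strand: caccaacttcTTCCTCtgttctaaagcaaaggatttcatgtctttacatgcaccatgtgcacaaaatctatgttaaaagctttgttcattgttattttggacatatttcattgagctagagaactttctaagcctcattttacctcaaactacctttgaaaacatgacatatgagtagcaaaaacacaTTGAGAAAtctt
Clec4e, chr6:123289922-123290121, minus strand: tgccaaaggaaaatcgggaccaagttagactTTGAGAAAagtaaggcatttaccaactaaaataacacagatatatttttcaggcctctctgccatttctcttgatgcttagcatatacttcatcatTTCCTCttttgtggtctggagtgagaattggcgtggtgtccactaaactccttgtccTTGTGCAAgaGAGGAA
Clec4a1, chr6:122921598-122921797, plus strand: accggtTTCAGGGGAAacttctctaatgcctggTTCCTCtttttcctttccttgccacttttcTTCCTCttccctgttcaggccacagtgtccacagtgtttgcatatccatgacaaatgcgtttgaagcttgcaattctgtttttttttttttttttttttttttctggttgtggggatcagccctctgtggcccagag
Mgl2, chr11:70130107-70130306, plus strand: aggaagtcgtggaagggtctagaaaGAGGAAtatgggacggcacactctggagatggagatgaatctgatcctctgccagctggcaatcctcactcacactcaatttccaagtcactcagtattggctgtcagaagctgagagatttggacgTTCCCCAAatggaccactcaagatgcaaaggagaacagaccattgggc

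GAGGAA was found in the windows of 5 of these 6 genes, against 18.8% of 32851 windows of the same length in the RefSeq table. TTNNGNAA was found in 3 of 6, against 32.3%, and the STAT6-type palindrome in 2 of 6 (Clec7a and Clec4a1), against 4.78%. Clec4e held 2 matches to GAGGAA and 2 to TTNNGNAA, and Clec4d and Mgl2 held 1 of each. The Clec4a1 window held 2 matches to GAGGAA, none to TTNNGNAA and 1 to the STAT6-type palindrome. These matches describe letters only, and Clec4d, Clec4e and Mgl2 each carried both GAGGAA and TTNNGNAA.

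The receptors spanned a wide range of levels, and Clec7a was the highest in each group. In WT PBS lung Clec7a stood at 265 ± 89.6 FPKM, Clec4d at 179 ± 77.9, Clec4a3 at 94.3 ± 2.25, Clec4e at 88.8 ± 28.4 and Clec4n at 77 ± 22.9 FPKM (SD, n = 3). Below these came Clec4a1 (47.5 ± 11.4 FPKM), Clec4a2 (18.6 ± 6.10), Clec12a (15.0 ± 2.77), Mgl2 (14.0 ± 5.50) and Clec10a (4.54 ± 1.57 FPKM). Values of neighbours in this order overlapped between libraries except between Clec4d and Clec4a3, Clec4a1 and Clec4a2, and Mgl2 and Clec10a. In DJ-1 KO OVA lung the order was Clec7a, Clec4a3, Clec4n, Mgl2, Clec4d, Clec4a2, Clec4e, Clec4a1, Clec10a and Clec12a, and only Clec7a stood clear of its neighbour. By mean FPKM Mgl2 stood below all but Clec10a in WT PBS and above Clec4d in DJ-1 KO OVA. FPKM is scaled by the gene length given with the data, from 1327 bases for Clec4a3 to 5528 for Clec12a. The order between genes therefore depends on these lengths, and whether they match the transcripts present was not tested.

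**Figure D1:**
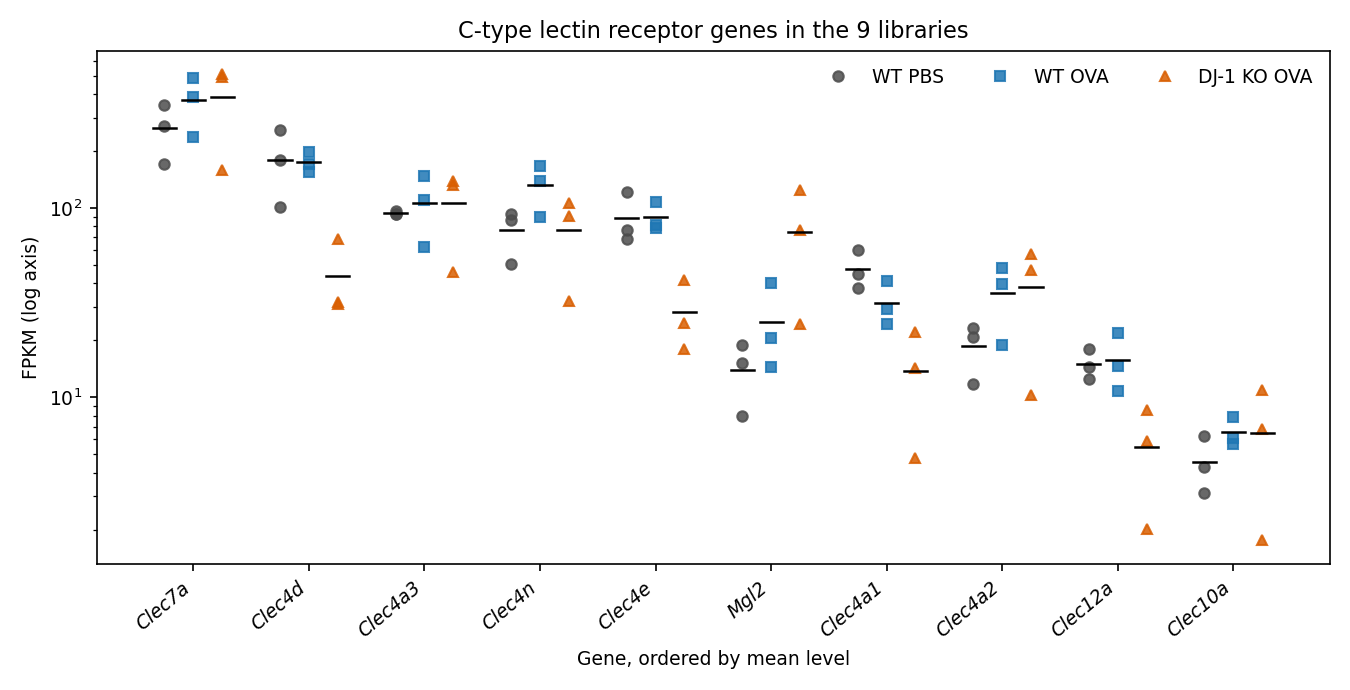
FPKM (log axis) of each of the 10 genes in the 9 libraries, with 1 point per library, marker shape and colour by group, and a bar at the group mean. Clec4d, Clec4e, Clec12a and Clec4a1 have all 3 DJ-1 KO OVA points below all wild-type points, while Clec7a, at 159 to 511 FPKM, overlaps in all groups.

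Ovalbumin challenge of wild-type mice was not accompanied by a change of any of the 10 genes that passed the test. Differences were computed from log2(FPKM + 0.5), where changes of weakly expressed genes appear too small, and were tested with limma at an adjusted p below 0.05 over all 17716 genes. In WT OVA against WT PBS, 0 of 10 genes passed, against 0.00564% of all genes, and 0 of 10 had an unadjusted p below 0.05, against 6.47% of all genes. Limma-voom on the recovered reads also called 0 of the 10. The difference was positive for 9 of 10 genes, with a median of 0.29 against 0.0044 over all genes tested. No gene had groups that did not overlap, against 14.8% of all genes in either direction.

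The point estimates and their intervals show what this design leaves possible. Clec4a2, the inhibitory dendritic cell immunoreceptor, differed by 0.87 (95% interval -0.43 to 2.17). Clec4n differed by 0.78 (-0.20 to 1.75) and Mgl2 by 0.78 (-0.48 to 2.03). Clec4d and Clec4e differed by 0.05 (-0.79 to 0.90) and 0.04 (-0.68 to 0.76). Clec4a1 was the exception in sign, at -0.59 (-1.59 to 0.41). A 2-fold change in either direction lies within the intervals of 7 of the 10 genes, and not within those of Clec4d, Clec4e and Clec12a.

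DJ-1 KO OVA lung had less Clec4d, Clec4e and Clec12a mRNA than WT OVA lung, and Mgl2 pointed the other way without passing the test. Of the 10 genes, 3 fell and 0 rose, against 8.24% of all genes lower and 5.93% higher (14.2% in either direction). Rescaling the libraries to equal summed FPKM moved the median of all genes by 0.46 and the split over all genes from 1051 higher and 1459 lower to 4432 and 602; the same 3 receptor genes were called lower, and Mgl2 higher. The median difference of the 10 genes was -0.60, against 0.00 over all genes. In bulk lung, fewer cells of a type and less mRNA per cell cannot be told apart.

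**Figure D2:**
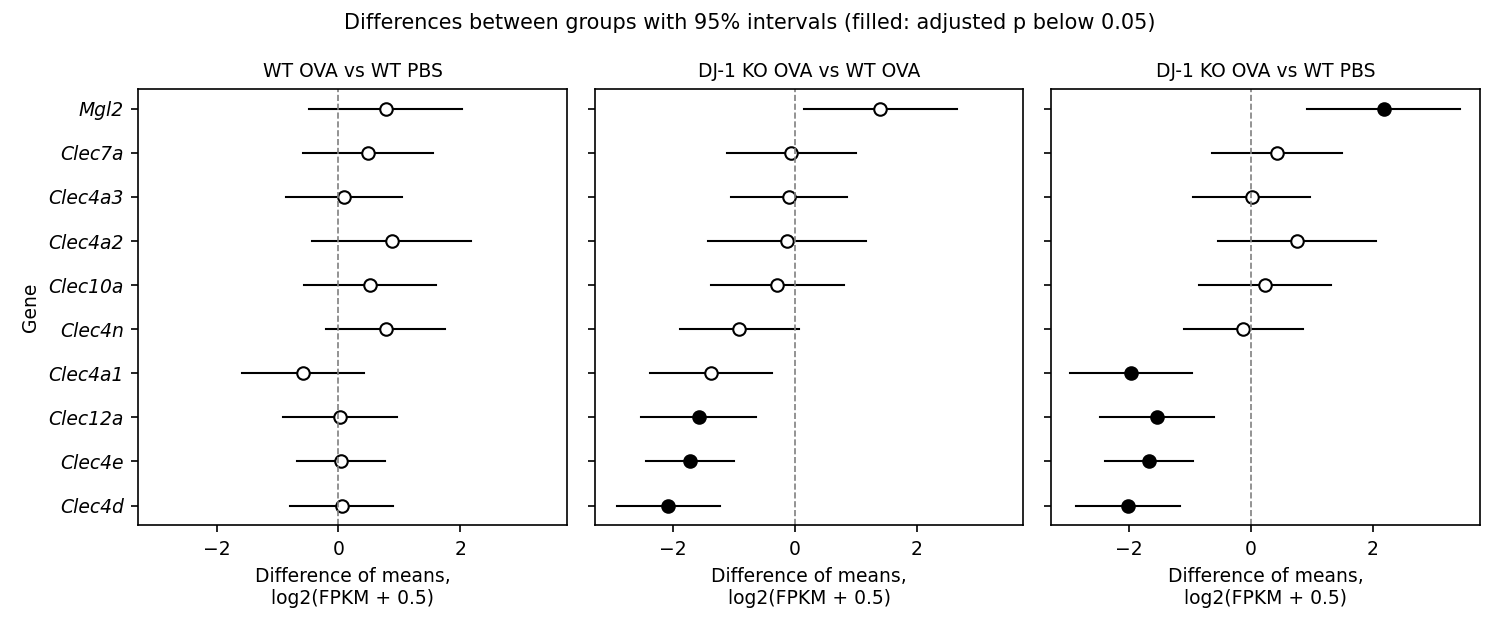
Difference of group means in log2(FPKM + 0.5) for each gene (point) with its 95% interval (line) in the 3 comparisons; filled points have an adjusted p below 0.05. Clec4d, Clec4e and Clec12a are filled in both comparisons that involve the knockout, Clec4a1 and Mgl2 in the comparison with WT PBS, and no gene in WT OVA against WT PBS.

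Clec4d, the MCL receptor that forms complexes with Mincle, stood at 179, 258 and 102 FPKM in the WT PBS libraries 1, 2 and 3. In WT OVA it stood at 155, 170 and 198 FPKM in libraries 5, 6 and 9. Its level was 31.2 FPKM in DJ1_KO_OVA_263, 68.9 FPKM in DJ1_KO_OVA_266 and 31.8 FPKM in DJ1_KO_OVA_267, the order kept for the other genes. The knockout libraries were all below the 6 wild-type libraries. Clec4d was 4.21-fold lower in DJ-1 KO OVA than in WT OVA (log2 difference -2.07, SE 0.38, limma adjusted p = 0.013).

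Clec4e, the Mincle receptor, stood at 76.5, 121 and 68.6 FPKM in WT PBS, 81.5, 78.8 and 108 FPKM in WT OVA and 18.1, 41.9 and 24.7 FPKM in DJ-1 KO OVA. Its groups showed the same arrangement, with the knockout libraries lowest and library DJ1_KO_OVA_266 the highest of them. The fall against WT OVA was 3.29-fold (log2 difference -1.72, SE 0.33, limma adjusted p = 0.014). Within libraries the ratio of Clec4d to Clec4e was 1.48 to 2.34 in WT PBS, 1.83 to 2.16 in WT OVA and lay between 1.29 and 1.73 in DJ-1 KO OVA, below every WT OVA value and overlapping WT PBS.

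Clec12a, the inhibitory uric acid crystal receptor, stood at 14.6, 17.9 and 12.4 FPKM in WT PBS, 14.6, 10.8 and 22.0 FPKM in WT OVA and 2.0, 8.53 and 5.86 FPKM in DJ-1 KO OVA. All knockout values were below all wild-type values, and library DJ1_KO_OVA_263 was the lowest. The fall against WT OVA was 2.99-fold (log2 difference -1.58, SE 0.42, limma adjusted p = 0.038).

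Clec4a1, Clec4a2 and Clec4a3, of the dendritic cell immunoreceptor group, did not pass the test against WT OVA. Clec4a1 stood at 44.8, 37.8 and 60.03 FPKM in WT PBS, 29.2, 24.5 and 41.1 FPKM in WT OVA and 4.79, 22.2 and 14.2 FPKM in DJ-1 KO OVA. The groups did not overlap between genotypes, but the difference from WT OVA (-1.38, SE 0.45) had a limma adjusted p = 0.063. In all, 4 of the 10 genes (Clec4d, Clec4e, Clec12a and Clec4a1) had DJ-1 KO OVA values below every WT OVA value and none had them above, against 18.8% and 18.4% of all genes.

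Clec4a2 stood at 20.9, 23.2 and 11.7 FPKM in WT PBS, 39.7, 18.8 and 48.4 FPKM in WT OVA and 10.3, 57.0 and 47.0 FPKM in DJ-1 KO OVA. Clec4a3 stood at 96.9, 92.8 and 93.2 FPKM in WT PBS, 110, 62.4 and 149 FPKM in WT OVA and 45.9, 133 and 140 FPKM in DJ-1 KO OVA. For both genes library DJ1_KO_OVA_263 was the lowest of the 9 libraries, and library DJ1_KO_OVA_267 lay inside the WT OVA range. Library DJ1_KO_OVA_266 was the highest of the 9 for Clec4a2 and lay inside the WT OVA range for Clec4a3. Their differences from WT OVA were -0.12 (95% interval -1.42 to 1.18) and -0.09 (-1.04 to 0.87). Rescaling the libraries to equal summed FPKM gave 0.49 and 0.53 in place of these, again without a call.

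Clec7a, the beta-glucan receptor, stood at 273, 351 and 172 FPKM in WT PBS, 387, 239 and 488 FPKM in WT OVA and 159, 496 and 511 FPKM in DJ-1 KO OVA. The knockout group held both the lowest and the highest value, and its difference from WT OVA was -0.05 (95% interval -1.12 to 1.011). That sign turned with the scaling, to 0.57 with equal sums and 0.61 with quantile normalization. Clec4n, which needs the Fc receptor gamma chain for its surface level, stood at 93.4, 86.7 and 50.8 FPKM in WT PBS, 140, 89.6 and 167 FPKM in WT OVA and 32.4, 106 and 91.1 FPKM in DJ-1 KO OVA. Libraries DJ1_KO_OVA_266 and DJ1_KO_OVA_267 lay inside the WT OVA range, so the groups overlapped, and the difference of -0.91 (SE 0.44) had a limma adjusted p = 0.17. Among the activating receptors, then, Clec4d and Clec4e fell and Clec7a and Clec4n did not pass the test. Whether the members differ from each other in their response was not tested.

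Of the galactose-type receptors, Mgl2 was high in libraries DJ1_KO_OVA_266 and DJ1_KO_OVA_267 and Clec10a in DJ1_KO_OVA_266 alone. Mgl2, which marks type 2 dendritic cells and alternatively activated macrophages, stood at 18.8, 15.2 and 8.0 FPKM in WT PBS, 40.3, 14.5 and 20.7 FPKM in WT OVA and 24.4, 124 and 76.4 FPKM in DJ-1 KO OVA. Library DJ1_KO_OVA_263 lay within the WT OVA range and the other two knockout libraries above it. The difference from WT OVA was 1.40 (SE 0.57, limma adjusted p = 0.11), and without library DJ1_KO_OVA_263 it was 2.06 (adjusted p = 0.034). Rescaling to equal sums gave 2.01 (adjusted p = 0.017). Clec10a stood at 6.22, 4.30 and 3.11 FPKM in WT PBS, 7.87, 6.07 and 5.70 FPKM in WT OVA and 1.75, 10.9 and 6.83 FPKM in DJ-1 KO OVA. Its knockout libraries were both the lowest and the highest of the 9, and the difference of -0.29 (95% interval -1.37 to 0.80) did not pass. Transcripts of these 2 genes share sequence: 13.1% of the distinct stretches of 50 bases of Mgl2 and 9.02% of those of Clec10a occur in the other gene. For stretches of 100 bases these shares were 3.95% and 2.64%. How reads from shared stretches were counted is not known. For Clec4a2, 6.69% of stretches of 50 bases and 2.14% of those of 100 bases were shared with Clec4a4.

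The calls of the 3 falls, but not their direction, depended on single libraries. Leaving out library DJ1_KO_OVA_267 or WT OVA library 9 left 0 of the 10 genes lower, with adjusted p-values of Clec4d at 0.065 and 0.052, of Clec4e at 0.065 and 0.057 and of Clec12a at 0.098 and 0.12. Without DJ1_KO_OVA_263, DJ1_KO_OVA_266, WT OVA 5 or 6, or WT PBS 1, 2 or 3, the number lower was 2, 4, 2, 2, 2, 2 and 3 in that order, with Clec12a the gene lost where 2 were left and Clec4a1 the gene gained without DJ1_KO_OVA_266. The log2 difference of Clec4d stayed between -2.44 and -1.88 over these 9 fits, that of Clec4e between -2.04 and -1.45 and that of Clec12a between -1.97 and -1.05.

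The comparison of DJ-1 KO OVA with WT PBS shares the knockout libraries with the comparison above and sets challenged knockout lung against unchallenged wild-type lung. Here 4 genes fell, Clec4d, Clec4e, Clec4a1 and Clec12a, and 1 rose, Mgl2, against 4.47% of all genes lower and 4.07% higher (8.54% in either direction). With equal summed FPKM the split over all genes went from 721 higher and 792 lower to 968 and 432, and the receptor counts were 1 and 4 as before. The median difference of the 10 genes was -0.06, against 0.00 over all genes. The same 5 genes were those whose groups did not overlap, against 25.6% of all genes.

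Clec4a1 was 3.90-fold lower than in WT PBS (log2 difference -1.96, SE 0.45, limma adjusted p = 0.027), from 47.5 ± 11.4 to 13.7 ± 8.69 FPKM (SD, n = 3). Mgl2 was 4.53-fold higher (2.18, SE 0.57, limma adjusted p = 0.041), from 14.0 ± 5.50 to 75.0 ± 49.9 FPKM. Clec4d was 4.05-fold lower (-2.02, SE 0.38, limma adjusted p = 0.013) and Clec4e 3.20-fold lower (-1.68, SE 0.33, limma adjusted p = 0.014). Clec12a was 2.92-fold lower (-1.55, SE 0.42) with a limma adjusted p = 0.049, next to the threshold. The other 5 genes had differences between -0.13 (Clec4n) and 0.75 (Clec4a2). Leaving out library DJ1_KO_OVA_267 or WT PBS library 2 left no call among the 10 genes, leaving out WT PBS library 1 left 1 gene lower, and leaving out WT PBS library 3 left 2. The rise of Mgl2 was called without library DJ1_KO_OVA_263 and without WT OVA library 5 or 6 and in no other fit with a library left out.

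The composition of the receptor set inside each library does not depend on the scaling between libraries. As a share of the summed FPKM of the 10 genes, Clec4d took 21.6% ± 4.04 of the sum in WT PBS, 18.4% ± 4.73 of it in WT OVA and 6.42% ± 3.06 of it in DJ-1 KO OVA (SD, n = 3). Clec4e took 11.0% ± 1.53, 9.27% ± 1.55 and 4.0% ± 1.44 in the same order. Clec7a took 32.5% ± 2.67, 37.0% ± 3.14 and 49.5% ± 3.89, and Mgl2 took 1.72% ± 0.492, 2.56% ± 1.26 and 9.03% ± 2.28. Shares add up to 100%, so a lower share of some genes raises that of the others: Clec7a took more of the sum while its own level differed by -0.05. The knockout libraries lay outside the range of all 6 wild-type libraries for 6 of the 10 genes, above it for Clec7a and Mgl2 and below it for Clec4d, Clec4e, Clec4a1 and Clec12a. Divided by the same sum, 4.39% of all genes lay above and 3.1% below in this way. The share of Clec4n was 9.61% to 9.91% in the knockout libraries, below the 12.5% to 13.9% of WT OVA and inside the 8.61% to 11.3% of WT PBS. The sum itself was 330 FPKM in library DJ1_KO_OVA_263 and 582 to 1249 FPKM in the other libraries. With 3 libraries against 3, the smallest two-sided p of an exact permutation test is 0.1, so shares and ratios are given without a test.

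Ratios between members of a cluster were chosen after their values were seen and are a description only. Mgl2 over Clec10a, which lie side by side, was 2.57 to 3.53 in WT PBS, 2.39 to 5.12 in WT OVA and reached 11.2 to 13.9 in DJ-1 KO OVA. Clec4a2 over Clec4a1 was 0.195 to 0.614 in WT PBS, 0.768 to 1.36 in WT OVA and 2.15 to 3.30 in DJ-1 KO OVA. Clec7a over Clec12a, at the ends of the Dectin-1 cluster, was 13.8 to 19.6, 22.1 to 26.6 and 58.2 to 87.2 in that order.

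The Dectin-2 cluster spans 368 kb with 13 genes in the table, of which 10 were tested. When the ovalbumin groups were compared, Clec4d and Clec4e, the 2 genes at its distal end, passed the test, and none of the other 8 did, among them Clec4a1 (-1.38, limma adjusted p = 0.063) and Clec4a4 (-0.86, 0.062). Differences between genes of a cluster were not tested. Among its genes that are not members, Clec4a4 alone passed in any comparison, with a fall against WT PBS from 1.65 ± 0.0910 to 0.403 ± 0.379 FPKM (log2 difference -1.34, SE 0.28, limma adjusted p = 0.018). The Dectin-1 cluster spans 130 kb with 7 genes, 5 of them tested, and Clec12a alone passed.

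**Figure D3:**
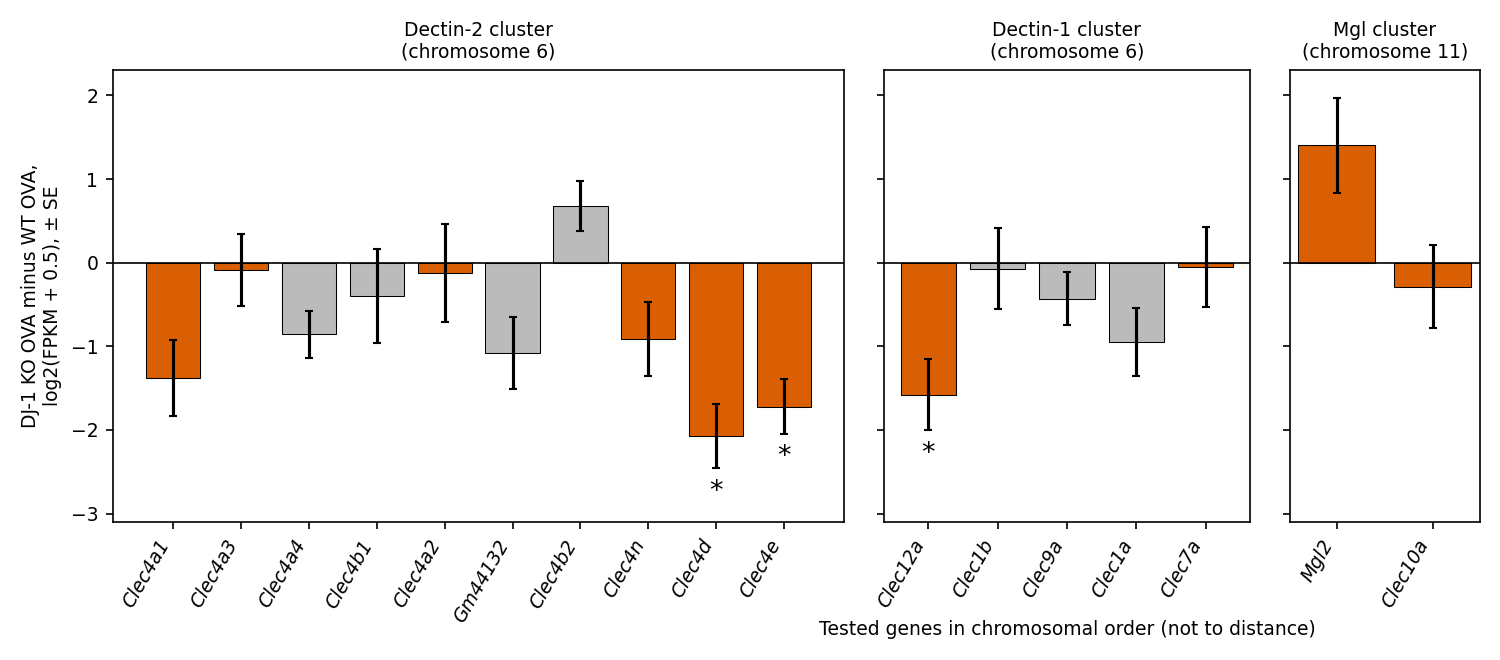
Difference DJ-1 KO OVA minus WT OVA in log2(FPKM + 0.5) (bar) with its SE (line) for each tested gene of the 3 clusters in chromosomal order, members in orange and other genes in grey; an asterisk marks an adjusted p below 0.05. Asterisks stand at Clec4d, Clec4e and Clec12a, and the bars of Mgl2 and Clec10a point in opposite directions.

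Marker genes of several cell types were called as well. Over all genes, 5.93% were higher and 8.24% lower in DJ-1 KO OVA than in WT OVA. Of 13 neutrophil genes, 10 were lower in DJ-1 KO OVA than in WT OVA and 0 higher, with a median difference of -1.26, and none was at 0. Ly6g stood at 11.1, 8.85 and 14.5 FPKM in WT OVA and at 1.73, 2.47 and 1.22 FPKM in DJ-1 KO OVA. The summed level of the list was 8936 to 25138 FPKM in WT PBS, 13413 to 19686 FPKM in WT OVA and 1516 to 4566 FPKM in DJ-1 KO OVA. Library DJ1_KO_OVA_266 was the highest of the knockout libraries for this sum. Among other lists, it was also the highest of them for pan-macrophage, interstitial macrophage, B cell, endothelial and alveolar epithelial genes. For 8 of the 10 receptors, all but Clec7a and Clec4a3, it was the highest knockout library too. Whether these go together was not tested.

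Set against the mean of the neutrophil list in the same library, a measure added after the values were seen, the differences between DJ-1 KO OVA and WT OVA were -0.34 for Clec4d, 0.01 for Clec4e, 0.15 for Clec12a and 0.35 for Clec4a1 in log2(FPKM + 0.5). For these 4 genes the groups then overlapped. A gene whose own fall is near that of the neutrophil mean is left with little difference by construction, so this too is read as no result. The neutrophil mean itself differed by -1.73, which this measure subtracts from the difference of every gene. On it 90.1% of all genes were higher without overlap and 0.203% lower. Of the 10 receptors 4 were higher without overlap (Clec7a, Clec10a, Mgl2 and Clec4a3), which is read as no result about them.

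**Figure D4:**
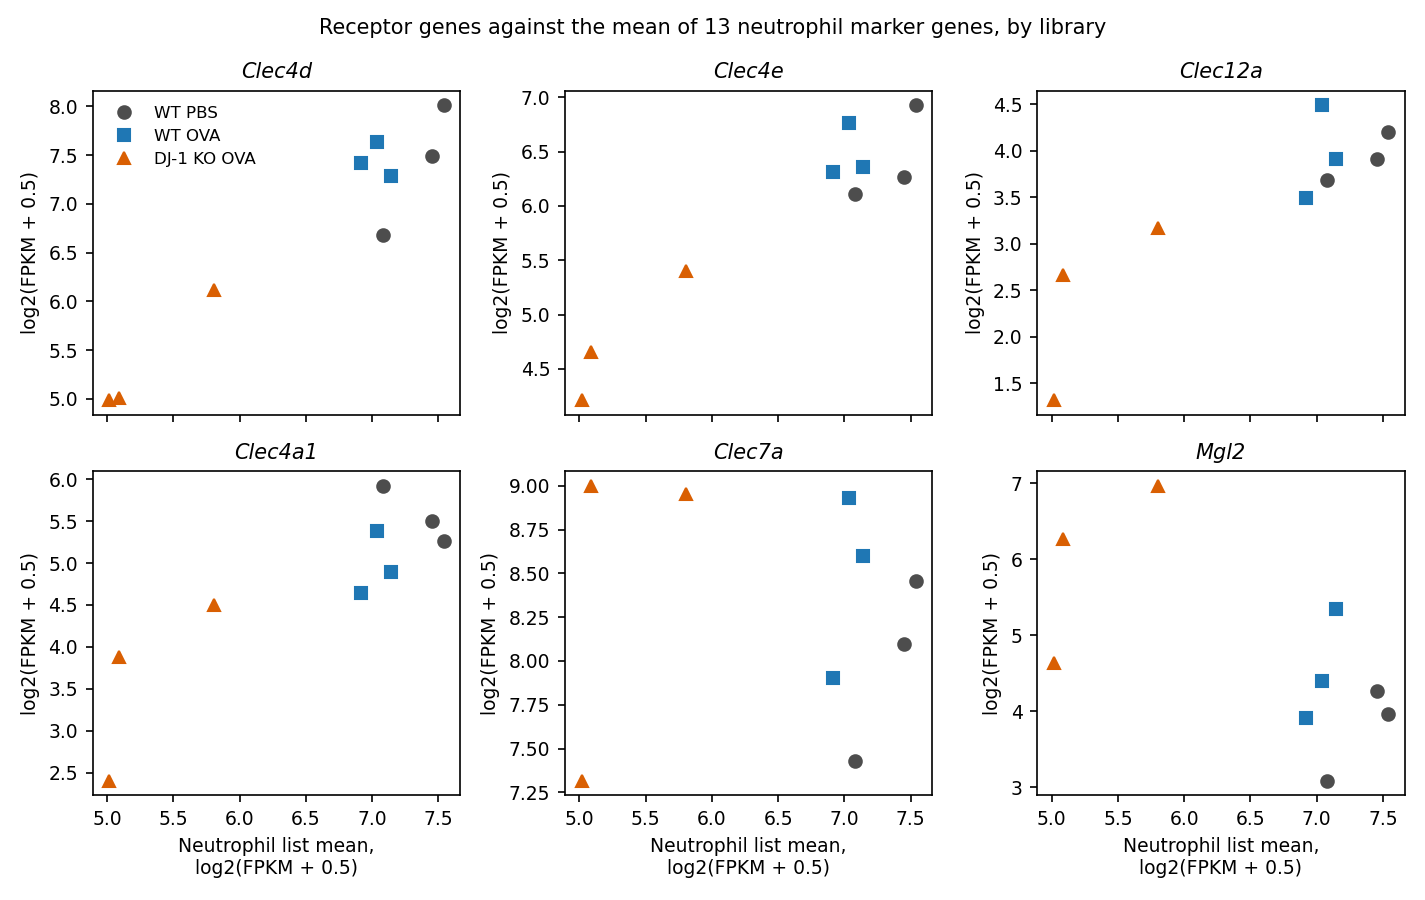
Level of 6 receptor genes in log2(FPKM + 0.5) (vertical) against the mean of 13 neutrophil marker genes on the same scale (horizontal), 1 point per library, marker by group. Clec4d, Clec4e, Clec12a and Clec4a1 are lowest in the 3 knockout libraries, which lie at neutrophil means of 5.02 to 5.80 against 6.92 to 7.54 in the wild-type libraries, whereas Clec7a and Mgl2 are high in 2 of the 3.

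Of 12 pan-macrophage genes, 2 were lower (Lyz2 and Tyrobp) and 0 higher in DJ-1 KO OVA than in WT OVA, with a median difference of -0.12. Their mean was 6.35 to 6.90 in the wild-type libraries, 6.74 and 6.63 in libraries DJ1_KO_OVA_266 and DJ1_KO_OVA_267 and 5.42 in library DJ1_KO_OVA_263. Relative to this mean the differences were -1.76 for Clec4d, -1.40 for Clec4e, -1.26 for Clec12a, -1.06 for Clec4a1, -0.59 for Clec4n and 1.72 for Mgl2, each with groups that did not overlap. That is 5 of the 10 receptors lower and 1 higher, against 6.21% and 13% of all genes on this measure. On this measure the Clec7a value of library DJ1_KO_OVA_263 was 1.90, inside the 1.56 to 2.18 of WT OVA. Of 8 nonclassical monocyte genes, 3 were lower and 0 higher, with a median of -1.02 and summed levels of 601 to 709 FPKM in WT OVA and 422 to 468 FPKM in DJ-1 KO OVA. Most of this sum was Nr4a1, which was not called (limma adjusted p = 0.38). It stood at 414, 403 and 382 FPKM in WT OVA and 352, 283 and 278 FPKM in DJ-1 KO OVA. Of 9 genes of type 2 conventional dendritic cells, 2 were higher (Irf4 and Itgax) and 0 lower, with summed levels of 151 to 795 FPKM in WT OVA and 348, 2562 and 2076 FPKM in libraries DJ1_KO_OVA_263, DJ1_KO_OVA_266 and DJ1_KO_OVA_267. Most of that sum in libraries DJ1_KO_OVA_266 and DJ1_KO_OVA_267 was the chemokine Ccl17, at 2268 and 1666 FPKM there, 218 FPKM in DJ1_KO_OVA_263 and 644, 52.3 and 392 FPKM in WT OVA (limma adjusted p = 0.18).

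Of 14 alveolar macrophage genes, 2 were higher (Mrc1 and Itgax) and 5 lower, among them Fabp1 (-4.13), Ear1 (-3.94) and the scavenger receptor Marco (-2.76), with summed levels of 675 to 892 FPKM in WT OVA and 379 to 1039 FPKM in DJ-1 KO OVA. Of 8 classical monocyte genes, 2 were higher, Fn1 (2.41) among them, and 4 lower, Plac8 (-2.59) among them. Of 7 alveolar epithelial genes, 4 were lower, Aqp5 (-1.59) and Ager (-1.40) among them. The summed level was 32530 to 41279 FPKM in WT OVA and 6175 to 13514 FPKM in DJ-1 KO OVA. Most of that sum was Sftpc, at a mean of 34647 FPKM in WT OVA and 9335 FPKM in DJ-1 KO OVA, which was not called (limma adjusted p = 0.055). Of 7 T cell genes, 4 were higher, Cd4 (1.84) among them, and of 7 B cell genes, 3 were lower, Cd79b (-1.76) among them. The summed T cell level was 77.3 to 125 FPKM in WT OVA. It was 384, 132 and 157 FPKM in libraries DJ1_KO_OVA_263, DJ1_KO_OVA_266 and DJ1_KO_OVA_267, and Cd4 stood at 53.2, 11.8 and 21.9 FPKM there. Library DJ1_KO_OVA_263 was thus the highest of the knockout libraries for this list. In the lists of interstitial macrophages and of type 1 conventional dendritic cells 1 gene each was called, Apoe lower (-1.30) and Itgae higher (1.34). No eosinophil, mast cell and basophil or endothelial gene was called. No gene of the 14 lists was at 0 in all libraries. The values relative to the neutrophil and pan-macrophage means are a description, and the part of these markers in the receptor results was not tested.

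Profiles over the 9 libraries were compared gene by gene, and no grouping of the receptors was computed. Clec4d was most like Clec4e among the members (r = 0.98), and over 13035 genes with a mean of at least 1 FPKM its nearest were S100a9 (r = 0.997), S100a8 (0.996) and Trim30b (0.995), S100a9 and S100a8 being neutrophil markers. Clec4e lay nearest to Il15 (0.995), G0s2 (0.992) and Hcst (0.991). Nearest to Clec12a were Rnase6 (0.992), Tyrobp (0.992) and Sirpb1a (0.991). Clec4a1 was closest to the Src-family kinases Fgr (0.988) and Lyn (0.988) and to Ace (0.987).

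Clec7a had other nearest profiles. It was nearest to Pkib (0.996) and Fabp4 (0.992) and then to Clec4a2 (0.980), and Clec4a2 in turn to Ccl6 (0.992), Cstb (0.987) and Fabp4 (0.986). Clec10a had Mgmt (0.983) and the complement genes C1qb (0.966) and C1qc (0.966) as neighbours, and Mgl2 had Rab3il1 (0.988), Asns (0.982) and Atp5b (0.978). Clec4n lay nearest to Hebp1 (0.995), Blvra (0.993) and Dnase1l1 (0.983), and Clec4a3 to Prcp (0.976), Btk (0.963) and H2-T23 (0.946). The lowest correlation between members was that of Clec4d and Mgl2 (r = -0.51). These correlations are over log2(FPKM + 0.5) in 9 libraries that share their group differences and their scaling, and serve as a description only.

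Signaling genes behind the receptors were called in both directions. Of 23 adaptors and kinases, 3 were higher and 2 lower in DJ-1 KO OVA than in WT OVA, with a median of -0.05. Over all genes, 5.93% were higher and 8.24% lower. Tyrobp, the DAP12 adaptor, stood at 1489 ± 415 FPKM in WT OVA and 481 ± 317 FPKM in DJ-1 KO OVA (SD, n = 3; log2 difference -1.83, SE 0.50, limma adjusted p = 0.040). Malt1, the paracaspase downstream of Card9, rose from 2.99 ± 0.588 to 8.54 ± 3.74 FPKM (1.30, SE 0.29, limma adjusted p = 0.023), and Nfkb1 (0.94) and Nfatc2 (0.86) rose with it. The common nodes did not pass: Syk stood at 29.1 ± 3.17 and 31.0 ± 9.23 FPKM, and Card9 at 12.8 ± 2.40 and 12.95 ± 6.26 FPKM. Fcer1g, the Fc receptor gamma chain, had a difference of -1.11 (SE 0.42) with a limma adjusted p = 0.093. Tyrobp, Malt1, Nfkb1 and Nfatc2 each lost the call when library DJ1_KO_OVA_267 or any WT OVA library was left out. The median turned to 0.53 with equal summed FPKM. In DJ-1 KO OVA against WT PBS, 1 was higher (Malt1) and 4 lower (Fgr, Bcl10 and Lyn among them), beside 4.07% and 4.47% of all genes. The median of the list was -0.36 there. With equal summed FPKM that median was -0.06, and the calls of Bcl10 and Lyn were lost. Of 9 fits with a library left out, Malt1 and Fgr were each called in 5, and Bcl10 and Lyn each in 1.

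**Figure D5:**
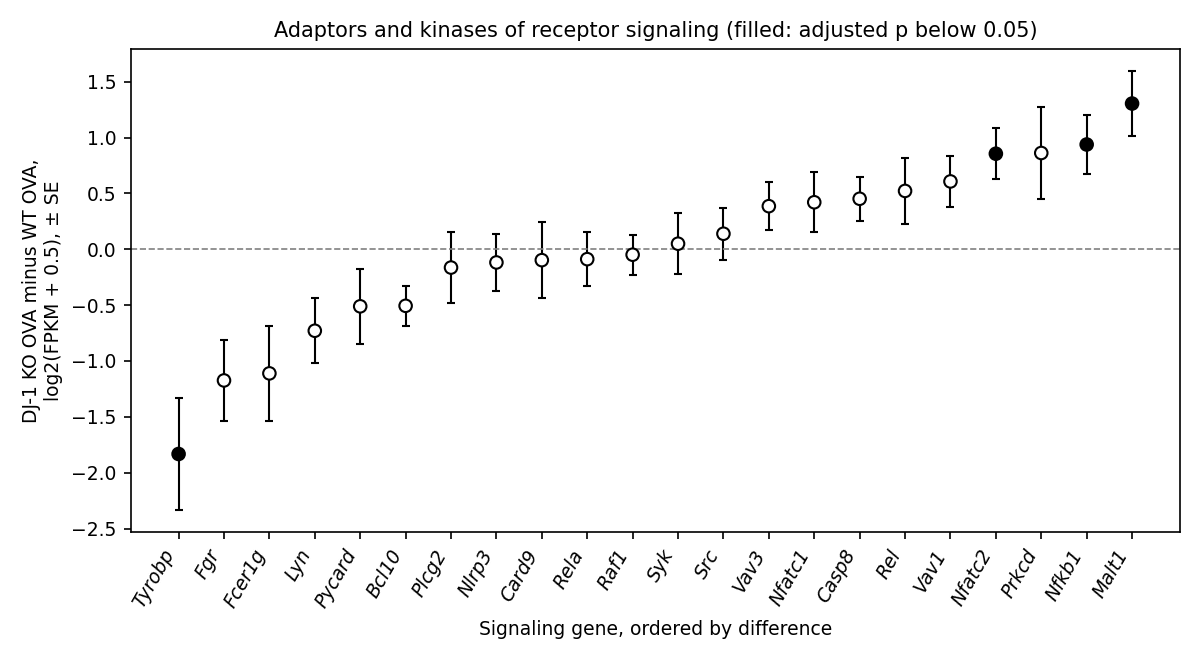
Difference DJ-1 KO OVA minus WT OVA in log2(FPKM + 0.5) with its SE for adaptors and kinases of receptor signaling, ordered by difference; filled points have an adjusted p below 0.05. Tyrobp lies at the low end, Nfatc2, Nfkb1 and Malt1 at the high end, and Syk and Card9 near 0.

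Of 9 inhibitory phosphatases and adaptors, 1 rose and 0 fell in DJ-1 KO OVA against WT OVA, with a median of 0.59. Over all genes, 5.93% were higher and 8.24% lower. The gene that rose was Cbl, a ubiquitin ligase that turns over signaling proteins (1.62, SE 0.40, limma adjusted p = 0.030). Cbl was called in 4 of 9 fits with a library left out. The median of 16 tested cytokine and chemokine genes induced through the receptors was -0.29, or 0.33 with equal summed FPKM. Of the 16, 1 rose and 0 fell, beside the same 5.93% and 8.24% of all genes. That gene, Cxcl1, a neutrophil-attracting chemokine, stood at 146 ± 29.4 FPKM in WT OVA and 302 ± 94.9 FPKM in DJ-1 KO OVA (1.02, SE 0.29, limma adjusted p = 0.043), and was called in 3 of 9 fits with a library left out. Egr2, of the same list, was at 0 in all libraries. Against WT PBS, Cxcl1 and the monocyte chemokine Ccl2 rose, by 1.66 and 1.24, and 0 fell, beside 4.07% higher and 4.47% lower over all genes. Cxcl1 was called there in all 9 fits with a library left out and Ccl2 in 2. Of 8 tested protein ligands and of 4 tested soluble collectins, 0 passed in either direction in any comparison. The most abundant ligand gene, Lgals3, stood at 380 ± 114 FPKM in WT OVA and 616 ± 379 FPKM in DJ-1 KO OVA, and the surfactant collectin Sftpa1 at 1793 ± 233 and 1233 ± 292 FPKM.

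Other C-type lectin genes were called in both directions. Of 31 tested, 3 rose and 4 fell in DJ-1 KO OVA against WT OVA, with a median of -0.16. Over all genes, 5.93% were higher and 8.24% lower. Mrc1, the macrophage mannose receptor, stood at 24.1, 21.0 and 26.0 FPKM in WT OVA and 63.3, 68.5 and 141 FPKM in DJ-1 KO OVA. All knockout values lay above all WT OVA values, and the rise was 3.54-fold (1.83, SE 0.29, limma adjusted p = 0.0079). It was called in all 9 fits with a library left out. Ly75, the DEC-205 receptor of dendritic cells (1.2), and the scavenger receptor Colec12 (1.15) rose too. Ly75 was called in 3 and Colec12 in 4 of 9 fits with a library left out. Both calls were lost without library DJ1_KO_OVA_267 or any WT OVA library. Clec2d (-1.81), Cd209f (-1.88), Cd209g (-1.43) and Cd302 (-0.94) fell. None of these 4 falls was called without library DJ1_KO_OVA_263, library DJ1_KO_OVA_267 or any of the WT OVA libraries, and with equal summed FPKM the calls of Cd209f and Cd302 were lost and the list's median turned to 0.19. Against WT PBS, 4 rose (Mrc1, Cd209e, Ly75 and Colec12) and 1 fell (Clec4a4), beside 4.07% higher and 4.47% lower over all genes. Of 9 fits with a library left out, Mrc1 was called in 9, Cd209e in 5, Ly75 in 2, Colec12 in 1 and Clec4a4 in 6.

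Among 12 transcription factors of myeloid cells, 1 rose and 2 fell in DJ-1 KO OVA against WT OVA, with a median of 0.07. Over all genes, 5.93% were higher and 8.24% lower. Irf4, a factor of type 2 dendritic cells and alternatively activated macrophages, stood at 4.49, 2.79 and 3.86 FPKM in WT OVA and 10.5, 14.9 and 32.9 FPKM in DJ-1 KO OVA (2.10, SE 0.36, limma adjusted p = 0.010). All 9 fits with a library left out called Irf4 higher. Cebpb fell from 477 ± 55.4 to 163 ± 75.4 FPKM (-1.65, SE 0.38, limma adjusted p = 0.025) and Cebpa from 136 ± 13.8 to 66.1 ± 26.8 FPKM (-1.11, SE 0.30, limma adjusted p = 0.037). Both falls were lost without library DJ1_KO_OVA_263, library DJ1_KO_OVA_267 or any WT OVA library, and that of Cebpa also with equal summed FPKM. Spi1, which encodes PU.1, had a difference of -1.22 (SE 0.43, limma adjusted p = 0.075). In WT OVA against WT PBS, 0 of the 103 tested genes of the 7 lists passed limma or limma-voom in either direction. Of the 103, 13 had an unadjusted p below 0.05 in limma, against 6.47% of all genes.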

How the data were processed

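RNA of total lung cells was measured in 9 libraries, 3 per group, with TruSeq libraries per the labels' protocols. The submitters' processing notes name Trimmomatic, HISAT2, HTSeq and GRCm38.p6, without roles or versions. The authors deposited FPKM per gene. Multiplying FPKM by gene length gave whole reads in each library for 100% of values above 0 (tolerance 0.01 reads); the authors' library sizes followed median-of-ratios size factors. FPKM were analysed as log2(FPKM + 0.5) for genes with a mean of at least 0.2, in a single limma fit of all 3 groups with trend (limma 3.58.1, R 4.3.3; 6 residual degrees of freedom before moderation), two-sided, Benjamini-Hochberg adjusted over 17716 genes, threshold 0.05. The test was run on simulated data first.

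The 10 genes and all gene lists were chosen with earlier results of these data known. Named list genes are those with the smallest p among the called, at most 4 per list and comparison, or the most abundant; the 3 most alike profiles per receptor; called genes within the clusters; and up to 3 markers per list. Nfkb1, Bcl10, Ly75, Cd209f, Cd209g, Egr2, Fcer1g, Syk, Card9 and Spi1, outside this rule, were named after their values were seen. One member of the adaptor and kinase list counts in its totals and is not reported here. Shared sequence was counted in GENCODE M21 transcripts. P-values measure the spread between libraries, which may be technical.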

Additional observations from a re-analysis of the deposited data

How the results depend on the processing

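In WT OVA against WT PBS, no alternative called any of the 10 receptors or the list genes. The 1 gene called higher over all genes went to 0 with a pseudocount of 0.1, no filter (2 lower), a filter of 1 FPKM, equal sums, quantile normalization, only the 2 groups compared, or limma-voom, and ranged from 0 to 14 higher and 0 to 1 lower with a library left out. Equal sums reversed uncalled Clec4d (-0.26), Clec4e (-0.27), Clec4a3 (-0.22) and Clec12a (-0.27), and quantile normalization Clec4d (-0.13), Clec4e (-0.11) and Clec4a3 (-0.033). With a library left out these ranged over -0.30 to 0.36 (Clec4d), -0.12 to 0.29 (Clec4e), -0.18 to 0.44 (Clec4a3) and -0.23 to 0.27 (Clec12a).

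In DJ-1 KO OVA against WT OVA, Clec4d and Clec4e were called lower under all 9 alternatives that keep every library. Clec12a was not called with no filter (adjusted p = 0.097) or with only the 2 groups compared (0.076), and Clec4a1 was called by limma-voom on recovered reads (0.040), which called 1407 genes higher and 1786 lower in all. Mgl2 was called with equal sums, giving 1 receptor higher. All genes called were 274 higher and 371 lower with no filter, 4432 and 602 with equal sums and 400 and 731 with 2 groups, and list genes 2 and 0, 33 and 5, and 3 and 2, against 9 and 8; quantile normalization gave 5 lower. More genes tested (no filter) and fewer samples (2 groups) belong to those settings by construction; otherwise the cause was not tested. Reversed without a call were Clec7a (0.57), Clec10a (0.27), Clec4a2 (0.49) and Clec4a3 (0.53) with equal sums, and Clec7a (0.61), Clec4a2 (0.020) and Clec4a3 (0.27) with quantile normalization. With a library left out, receptors called ranged from 0 to 1 higher and 0 to 4 lower, all genes from 125 to 2721 higher and 161 to 2973 lower, and list genes from 2 to 13 and 0 to 20. Differences then ranged over -0.34 to 0.50 (Clec7a), -0.78 to 0.39 (Clec10a), -0.57 to 0.64 (Clec4a2) and -0.43 to 0.43 (Clec4a3).

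In DJ-1 KO OVA against WT PBS, no filter and 2 groups each left 0 receptors higher and 2 lower, 327 and 342 or 318 and 382 genes, and 3 and 2 or 4 and 3 list genes, against 8 and 6. Equal sums gave 432 genes lower and 16 list genes higher, and turned Clec4n to 0.17; quantile normalization turned it to 0.068. With a library left out, receptors ranged from 0 to 1 higher and 0 to 4 lower, genes from 197 to 1902 and 229 to 1995, list genes from 3 to 15 and 0 to 19, Clec10a over -0.27 to 0.90, Clec4a3 over -0.27 to 0.53 and Clec4n over -0.45 to 0.40. No paired analysis was possible because the groups share no replicate numbers. With 3 libraries a group, limma leaves wide intervals, and a 2-fold change lay inside the 95% interval of 7 of the 10 receptors in wild-type challenge.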
